A study of Mus musculus with 16 samples.

Results

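Fractalkine (Cx3cl1) and its receptor (Cx3cr1) were followed through the hippocampus of aged 3xTg-AD mice fed with or without pioglitazone (PIO). Of 45037 probe sets, 6 carried only one of these gene symbols, 2 for Cx3cr1 and 4 for Cx3cl1. Of these 6, 5 passed a filter on low values, set at the 40th percentile of the probe sets' mean levels, or 3.58 log2 units, and the probe set 1441884_x_at of Cx3cl1 did not. The pair was chosen by measured values of the same contrast, since Cx3cr1 had the smallest p among the genes lower with PIO. Differences between the diets in the 2 genes, and in Cx3cr1 relative to other microglial genes, are therefore a description with no test.

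Total RNA from 16 female mice aged 14 months was measured, 1 Affymetrix array per animal, with 8 animals on a control diet and 8 on a PIO diet. PIO, a thiazolidinedione that activates the nuclear receptor PPAR gamma, was mixed into the chow at 84 ppm, a daily dose near 18 mg per kg, for some 14 weeks from 10 months of age. Animals of both diets carried the 3xTg-AD alleles, which include human APP and tau transgenes driven by a neuronal Thy1 cassette. There was no animal without these alleles, so every value belongs to this model. Values were log2 expression per probe set as deposited, and their precision is limited by the number of arrays.

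Fractalkine is a chemokine made mainly by neurons in the brain, anchored in the membrane by a stalk and released when proteases cut that stalk. Its receptor, a Gi-coupled receptor, is made in the brain by microglia and by some macrophages at the borders. The pair is known as a signal by which neurons restrain microglial activity.

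The start regions of both genes are shown because the animals received a drug that acts through a DNA-binding receptor and because the ligand and the receptor are made by different cells. Each is the RefSeq window from 250 bases before to 50 bases after the annotated start, in GRCm38.p6, read 5′ to 3′ on the gene's own strand. Cx3cl1 lies on the plus strand with its window at chr8:94771930-94772229, and Cx3cr1 on the minus strand at chr9:120068247-120068546. Capitals mark matches, on either strand, to 3 motifs: AGGTCA, the half-site of PPAR and RXR, GAGGAA, a core of sites for the myeloid factor PU.1, and TATAAA, the TATA box. No 2 matches overlapped.
Cx3cl1: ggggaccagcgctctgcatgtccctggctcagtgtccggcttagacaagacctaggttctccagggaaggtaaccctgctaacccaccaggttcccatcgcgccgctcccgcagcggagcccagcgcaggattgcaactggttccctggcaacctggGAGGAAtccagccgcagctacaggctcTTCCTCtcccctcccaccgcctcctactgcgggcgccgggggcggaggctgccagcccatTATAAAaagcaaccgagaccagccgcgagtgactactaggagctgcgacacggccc
Cx3cr1: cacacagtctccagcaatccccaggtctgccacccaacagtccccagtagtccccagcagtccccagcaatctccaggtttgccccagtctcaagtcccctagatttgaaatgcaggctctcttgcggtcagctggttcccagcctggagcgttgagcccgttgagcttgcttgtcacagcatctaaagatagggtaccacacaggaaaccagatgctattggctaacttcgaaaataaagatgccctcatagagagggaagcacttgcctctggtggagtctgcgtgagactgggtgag

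The PPAR half-site had 0 matches in both windows, and 16.3% of 32851 windows of this length held it. The PU.1 core, present in 28.3% of windows, had 2 matches in Cx3cl1, starting at positions -93 and -66 from the start, and 0 in the receptor gene Cx3cr1. The letters of the TATA box, in 13.6% of windows, had 1 match in Cx3cl1, at position -6, closer to the annotated start than a working TATA box usually lies, and 0 in Cx3cr1. The Cx3cl1 window had 64.7% G and C and 19 CpG pairs, the Cx3cr1 window 54.3% and 5, and the median window 52.7% and 7. A missing match says only that these letters are not in this window, and the arrays measured no binding.

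No single gene passed the test between the diets, which with 8 arrays per diet does not show that the differences were small. Limma's test of 12266 genes, with 1 probe set per gene, called 0 genes (0%) at an adjusted p of 0.05, and 859 genes (7%) had an unadjusted p under 0.05, 386 lower (3.15%) and 473 higher (3.86%) with PIO. Arrays were numbered 1 to 6 in 4 control and 2 PIO animals and 10 to 24 in 4 control and 6 PIO animals. A code in the labels, its meaning not given in the sources used here, divided the arrays in 3 sets, the largest with 5 control and 6 PIO animals. Neuronal markers (14 of 14), hippocampal subfield markers (8 of 8) and microglial markers (26 of 29) were kept by the filter. Choroid plexus genes varied most between animals, with list means from -3.31 to 2.49 log2 units around the overall mean in controls and from -3.66 to 2.72 with PIO. With PIO all 10 choroid plexus genes (median 1.30), all 6 striatal genes (0.26) and 5 of 6 thalamus and habenula genes (0.24) were higher, and 7 of 8 hippocampal subfield genes (-0.17) were lower, with 0 called and 2, 1 striatal and 1 thalamic, at an unadjusted p under 0.05. PIO animals 15 and 14 had the highest striatal means, at 1.02 and 0.87, and the lowest subfield means, at -0.66 and -0.56, while PIO animal 16 had the highest thalamic mean, at 0.89. Without these 3 animals, a choice made after results were known, the PIO difference of Cx3cr1 was -0.46 and that of Cx3cl1 -0.0093, beside -0.44 and 0.026 with all animals.

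The receptor was lower with PIO. For Cx3cr1 the brighter probe set, 1450020_at, ranged in controls from 9.85 to 10.42 log2 units with a median of 10.08, and with PIO from 9.46 to 9.89 with a median of 9.65. Of the 8 PIO animals, 7 lay below the lowest control, and the exception was PIO animal 15 at 9.89. The groups thus overlapped only between control animals 5 and 6, at 9.85 and 9.88, and PIO animal 15. Of all genes tested, 18 (0.147%) had 7 or more PIO animals below the lowest control, a pattern of the kind that chose Cx3cr1.

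The means of 1450020_at were 10.11 ± 0.23 and 9.66 ± 0.16 (SD, n = 8 each). The log2 difference was -0.44 (SE 0.094), so that the PIO mean was 0.735 times the control mean, and the difference was larger than the SD within either diet. For comparison, the median absolute difference of a gene was 0.050 and the median SE 0.064. Only 19 of 12266 genes had a more negative difference than Cx3cr1, which was chosen by its values in this contrast. In hippocampal tissue, fewer cells of a type and less RNA per cell cannot be told apart.

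The dimmer Cx3cr1 probe set, 1450019_at, ranged from 6.55 to 7.38 log2 units in controls (median 6.77) and from 5.98 to 6.84 with PIO (median 6.60). Here the diets overlapped widely, with 3 PIO animals below the lowest control and 3 controls above the highest PIO animal. All 8 PIO animals lay below the control mean, as they did for the brighter probe set. The means were 6.84 ± 0.30 and 6.48 ± 0.31 (SD, n = 8 each), a log2 difference of -0.36 (SE 0.14). Both Cx3cr1 probe sets were thus lower with PIO, and across the 16 animals, each relative to its diet mean, their levels correlated with r = 0.76 and rho = 0.73, a description of 2 probe sets read on the same arrays.

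The size of the receptor difference varied with the array numbers. In arrays 1 to 6 the 4 controls had a mean of 10.21 log2 units on 1450020_at for Cx3cr1 and the 2 PIO animals 9.55, a difference of -0.67. In arrays 10 to 24 the 4 controls had a mean of 10.00 and the 6 PIO animals 9.70, a difference of -0.30, and 5 of the 6 PIO animals lay below the lowest of those controls. The PIO mean was lower in both ranges. For 1450019_at the differences were -0.75 and -0.17, and in arrays 10 to 24 only 1 of 6 PIO animals lay below the lowest control. Without PIO animals 14 to 16 the difference of 1450019_at was -0.51, and that of 1450020_at relative to Csf1r, P2ry12 and Aif1 was -0.32. Within the largest set of the label code, with all its animals, the differences of 1450020_at and 1450019_at themselves were -0.39 and -0.34. In the set of 2 controls and 1 PIO animal they were -0.32 and -0.16, and in the set of 1 and 1 they were -0.75 and -0.40.

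The diet differences of other cell types' markers also varied with the array numbers, a variation that was not tested. Border macrophage and monocyte markers, of which 4 of 10 were kept (Mrc1, Pf4, F13a1 and Ccr2), had a median difference of -1.01 log2 units in arrays 1 to 6 and 0.62 in arrays 10 to 24. PIO animals 9 and 10, the 2 of arrays 1 to 6, had the lowest list means of all animals, at -0.75 and -0.78 for border macrophages and at -0.55 and -0.59 for endothelium. Over all arrays the border macrophage list ranged from -0.67 to 0.64 in controls and from -0.78 to 0.86 with PIO. Of its 4 kept genes, 2 were lower with PIO. Cd163, Lyve1, Ms4a7, Cd3e, Nkg7 and Cd79b, which mark border macrophages and lymphocytes, did not pass the filter. Other glial markers were lower with PIO too, all 8 kept astrocyte genes, with a median of -0.067, and all 9 kept oligodendrocyte and myelin genes, with a median of -0.20, beside 47.3% of all genes lower. None was called, and 2 and 3 had an unadjusted p under 0.05. Of all 12266 genes, 7429 were lower with PIO in arrays 1 to 6 and 4985 in arrays 10 to 24. The myelin genes were lower in 4 of 9 cases in arrays 1 to 6, with a median of 0.035. In arrays 10 to 24 they were lower in 9 of 9, with a median of -0.28. In arrays 10 to 24 Cx3cr1, at -0.30, was lower than 5 of these 9 genes. The part of these cells in the Cx3cr1 difference was not tested.

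The ligand showed no comparable difference. For Cx3cl1 the brightest probe set, 1415803_at, ranged in controls from 12.60 to 12.81 log2 units with a median of 12.79, and with PIO from 12.66 to 12.98 with a median of 12.73. The groups overlapped, although 3 PIO animals (13, 14 and 15) lay above the highest control. The means were 12.75 ± 0.08 and 12.78 ± 0.13 (SD, n = 8 each), with a log2 difference of 0.026 (SE 0.055), less than the SD of either diet.

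The second Cx3cl1 probe set, 1415804_at, ranged from 11.62 to 12.08 in controls and from 11.73 to 12.22 with PIO, with a log2 difference of 0.051 (SE 0.076). The third, 1421610_at, ranged from 6.80 to 7.71 in controls and from 6.83 to 7.67 with PIO, with a difference of -0.021 (SE 0.16). The fourth, 1441884_x_at, lay under the filter between 2.57 and 3.01 in all 16 animals. The 3 kept probe sets of the ligand thus differed by less than their SE, and not all in the same direction. They varied together between animals relative to their diet means, with r from 0.59 to 0.74, whereas r with the fourth probe set lay between -0.14 and -0.07.

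**Figure D1:**
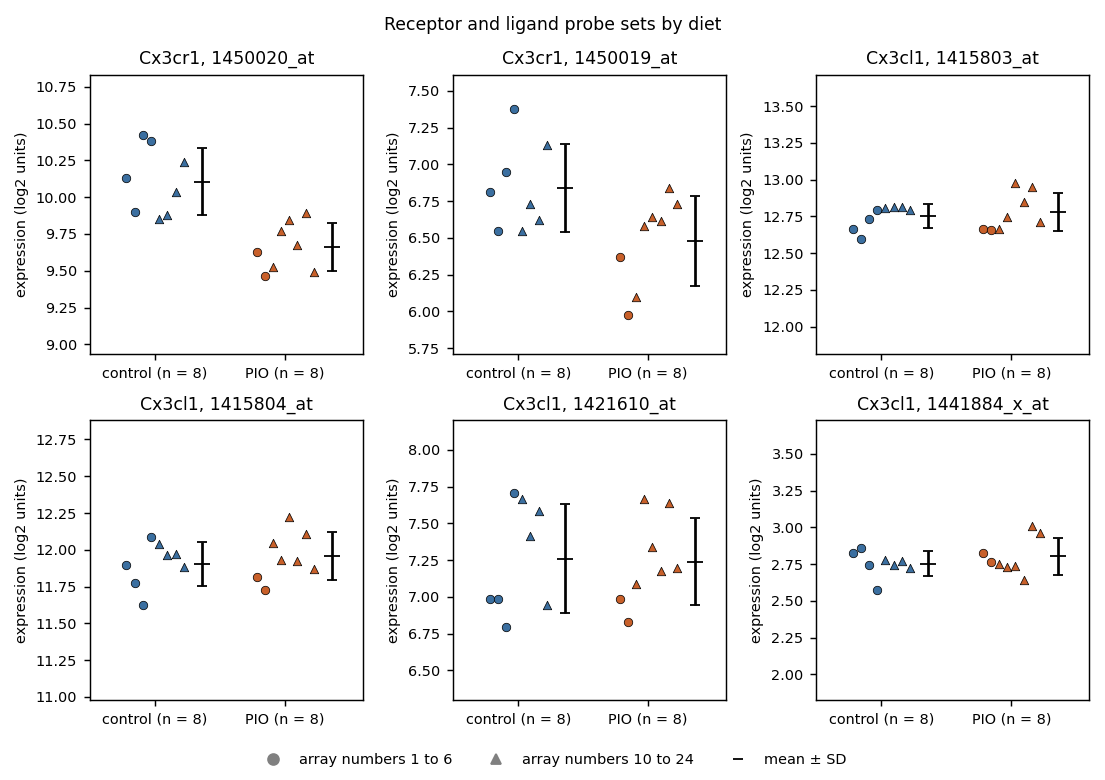
Log2 expression of the 2 Cx3cr1 and 4 Cx3cl1 probe sets in each animal by diet, with every axis spanning the same range, circles for arrays 1 to 6, triangles for arrays 10 to 24 and bars for the mean ± SD. On 1450020_at of Cx3cr1, 7 of 8 PIO animals sit below the lowest control, while on the Cx3cl1 probe sets the diets overlap.

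In each array Cx3cr1 was also set against 3 other microglial genes: Csf1r, the receptor for the growth factors that keep microglia alive, P2ry12, a purine receptor of resting microglia, and Aif1, which encodes the protein IBA1. These genes were lower with PIO by less. Csf1r had a log2 difference of -0.21 (SE 0.072), P2ry12 of -0.13 (SE 0.072) and Aif1 of -0.12 (SE 0.075), with adjusted p of 0.658, 0.762 and 0.762 in limma's test of all genes. These 3 genes were named together with the pair when it was chosen, so their p-values are not independent support. The other Csf1r probe sets, 1419873_s_at and 1423593_a_at, had differences of -0.15 (SE 0.071) and -0.14 (SE 0.087). On them 1 and 0 of 8 PIO animals lay below the lowest control, beside 5 on the brightest one, which was used here. A difference of log2 values within 1 array is the log2 of a ratio, and only its change between arrays is read, since 2 probe sets' levels cannot be compared.

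Log2 Cx3cr1 minus the mean of the 3 genes ranged from 0.31 to 0.73 in controls (median 0.56) and from 0.14 to 0.44 with PIO (median 0.19). Of 8 PIO animals, 6 lay below the lowest control, and PIO animals 13 and 15, at 0.34 and 0.44, lay within the control range. The means were 0.52 ± 0.14 and 0.23 ± 0.11 (SD, n = 8 each), a difference of -0.29 (SE 0.063), which left the PIO ratio at 0.818 times the control ratio. The mean of the 3 genes itself differed by -0.15 (SE 0.052), beside -0.44 for Cx3cr1.

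The relative difference had the same sign against each gene. Against Csf1r it was -0.23, with 5 of 8 PIO animals below the lowest control. Against P2ry12 it was -0.32, with 4 of 8, and against Aif1 it was -0.32, with 6 of 8. With the dimmer Cx3cr1 probe set in place of the brighter one, the difference against the mean of the 3 genes was -0.20, with 3 of 8 PIO animals below the lowest control. It was smaller than the SD within either diet, 0.24 and 0.28.

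Relative to the 3 genes Cx3cr1 was also lower in both array ranges, by -0.41 log2 units in arrays 1 to 6 and by -0.22 in arrays 10 to 24, where 5 of 6 PIO animals lay below the lowest control. The mean of the 3 genes differed by -0.25 in arrays 1 to 6 and by -0.078 in arrays 10 to 24. In the 3 sets of the label code the relative difference was -0.26, -0.22 and -0.36. On the dimmer Cx3cr1 probe set it was -0.49 in arrays 1 to 6 and -0.096 in arrays 10 to 24, where 1 of 6 PIO animals lay below the lowest control, and -0.21, -0.061 and -0.011 in the 3 sets.

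**Figure D2:**
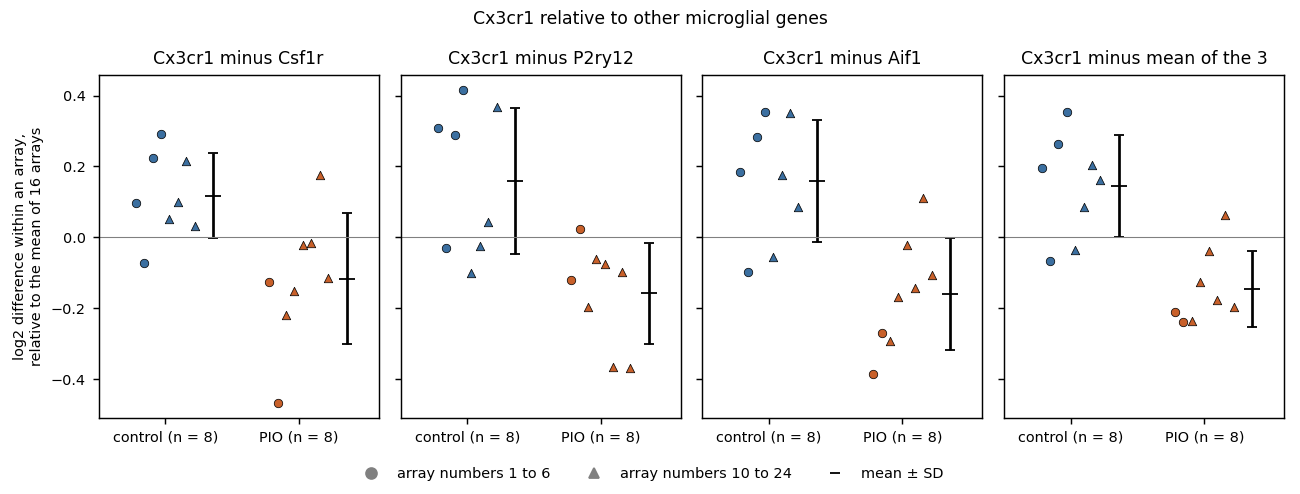
Log2 Cx3cr1 minus log2 Csf1r, P2ry12, Aif1 or their mean in each array, shown relative to the mean of the 16 arrays, by diet, with circles for arrays 1 to 6, triangles for arrays 10 to 24 and bars for the mean ± SD. Against the mean of the 3 genes, 6 of 8 PIO animals lie below the lowest control.

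Among a wider list of 26 kept microglial genes without Cx3cr1, 22 were lower and 4 higher with PIO, and 0 passed an adjusted p of 0.05. The median was -0.16 log2 units, beside 0.0045 over all 12266 genes, of which 47.3% were lower. At an unadjusted p under 0.05 there were 5 list genes lower and 0 higher, beside 3.15% of all genes lower. Cx3cr1 had a more negative difference than 24 of the 26, but it was chosen by its values in this contrast, so such a rank was likely beforehand. The exceptions were Fcrls, an Fc receptor-like gene of microglia, at -0.69 (SE 0.28), and Trem2, a lipid-sensing receptor, at -0.57 (SE 0.28), both with a wider SE than Cx3cr1 (0.094). Itgb2, an integrin subunit of leukocytes, was nearly level with Cx3cr1 at -0.44 (SE 0.18), with 6 of 8 PIO animals below the lowest control. These 3 genes were named after their values were seen. The list was chosen with earlier results known, so its count is not independent support.

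The list median, like Cx3cr1, was further from 0 in arrays 1 to 6. In arrays 1 to 6, 23 of 26 genes were lower with PIO, beside 7429 of all 12266 genes. The list median there was -0.33, beside -0.029 for all genes. In arrays 10 to 24, 17 of 26 were lower, beside 4985 of all 12266 genes. The list median there was -0.057, beside 0.021 for all genes. Cx3cr1, at -0.30, was again lower than 24 of the 26, a rank likely beforehand for the same reason as above. Per animal, the list mean around the overall mean ranged from -0.22 to 0.38 in controls and from -0.27 to 0.24 with PIO, so the diets overlapped on the list as a whole. Log2 Cx3cr1 minus the list mean differed by -0.26 (SE 0.084), with 5 of 8 PIO animals below the lowest control.

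**Figure D3:**
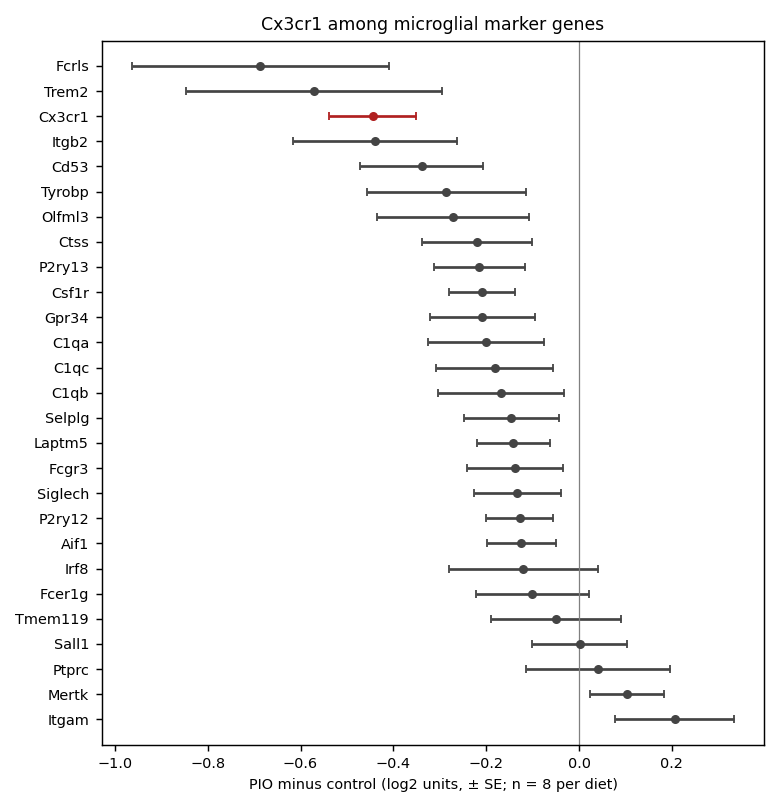
PIO minus control in log2 units with its SE (n = 8 per diet) for Cx3cr1, in red, and 26 microglial marker genes, in order of the difference. Cx3cr1 lies next to Fcrls and Trem2 at the negative end, at -0.44, with a shorter SE bar than Fcrls and Trem2, and 4 genes lie above 0.

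No gene that processes the ligand was called in limma's test. Of 5 such genes 4 were kept, 2 higher and 2 lower with PIO, with 0 at an unadjusted p under 0.05 and a median of -0.0067. Ctss, cathepsin S, a microglial protease that can cut fractalkine from the neuron surface, had a control mean of 12.40 ± 0.25 and a PIO mean of 12.18 ± 0.26 (SD, n = 8 per diet), and a log2 difference of -0.22 (SE 0.12; limma adjusted p = 0.745). It is also on the microglial list. Mmp2, a matrix metalloproteinase, had a difference of 0.21 (SE 0.23) and Adam17, the inducible sheddase, of -0.026 (SE 0.062). Adam10, the constitutive sheddase, named for its role, had a difference of 0.012 (SE 0.039), and its 2 diet means of 11.83 and 11.84 lay within an SD of 0.07.

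Among integrin genes whose products can bind fractalkine, 3 of 4 were kept and 0 were called, with 1, higher, at an unadjusted p under 0.05. That gene, Itga4, had a log2 difference of 0.15 (SE 0.067; limma adjusted p = 0.710), Itgb1 of 0.057 (SE 0.064) and Itgav of -0.043 (SE 0.069). The median was 0.057.

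Of 13 kept genes for receptor coupling and signalling, 4 were higher and 9 lower with PIO, 0 were called, and the median was -0.0065. Only Arrb1 had an unadjusted p under 0.05. Arrb1, a beta-arrestin that ends G protein signalling, had a difference of -0.12 (SE 0.044; limma adjusted p = 0.666), with control and PIO means of 10.86 ± 0.086 and 10.73 ± 0.077 (SD, n = 8 each). Akt2, a kinase downstream of PI3 kinase, had a difference of -0.13 (SE 0.078). Gnb1, a G protein beta subunit, had one of -0.48 (SE 0.37), but its difference was 0.58 in arrays 1 to 6 and -0.94 in arrays 10 to 24. The Gi alpha genes Gnai1, Gnai2 and Gnai3, through which the receptor signals and which were named for that role, had differences of 0.024, 0.024 and -0.040, each below its SE of 0.028, 0.074 and 0.052.

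**Figure D4:**
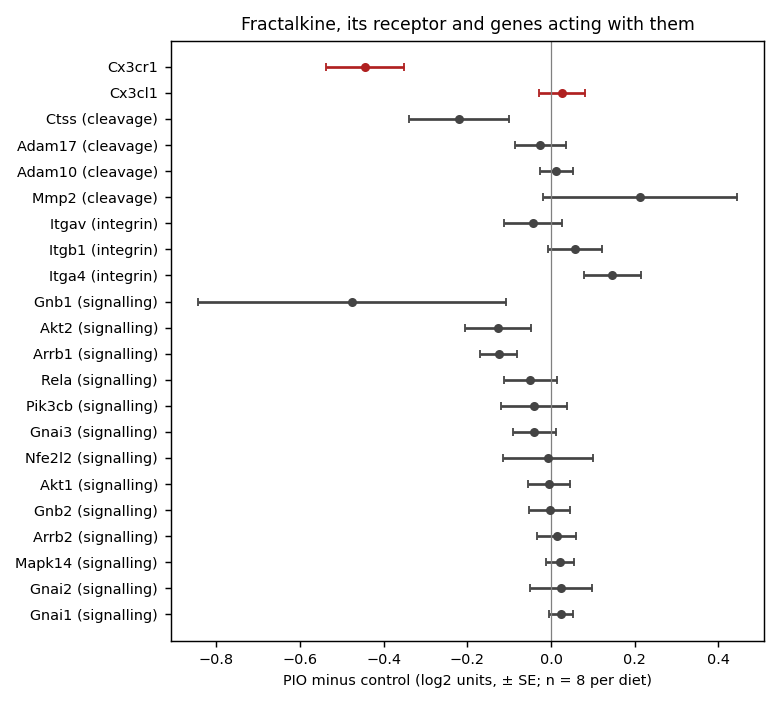
PIO minus control in log2 units with its SE (n = 8 per diet) for Cx3cr1 and Cx3cl1, in red, and for 20 genes of ligand cleavage, integrin binding and receptor signalling, which were tested and of which 0 were called. Cx3cr1 lies at -0.44 and Cx3cl1 at 0.026, and the other point under -0.40, Gnb1, has the widest SE bar.

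Other signals between neurons and microglia were read in the same way. Of 10 kept ligand genes 5 were higher and 5 lower with PIO, with 0 called and a median of -0.0042. Cd24a alone had an unadjusted p under 0.05. Cd24a, a surface glycoprotein of developing neurons, had a log2 difference of 0.33 (SE 0.14; limma adjusted p = 0.681). Cd200, which like fractalkine restrains microglia from the neuron surface, had one of 0.17 (SE 0.11), and Cd47, the signal against engulfment, of -0.088 (SE 0.063).

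Of the 13 kept receptor genes for such ligands, 4 were higher and 9 lower with PIO, with 0 called and a median of -0.058, beside 47.3% of all genes lower. An unadjusted p under 0.05 was reached by 3, all lower: Csf1r, Axl, a receptor for engulfment, at -0.13 (SE 0.059), and P2ry13, a purine receptor, at -0.21 (SE 0.097). Their limma adjusted p was 0.658, 0.702 and 0.705, and 3.15% of all genes were lower at that unadjusted p. Csf1r and P2ry13 are also on the microglial list, and Csf1r is 1 of the 3 genes that Cx3cr1 was set against. Cx3cr1 had a more negative difference than 12 of the 13, all but Trem2, a rank likely beforehand for a gene chosen by this contrast.

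The array number was examined apart from diet, as a measure that did not choose the pair. In limma's fit of 27022 probe sets with diet as a covariate, 1 probe set (0.0037%) was called between arrays 10 to 24 and arrays 1 to 6. In the fit by gene 1 gene (0.00815%), no member, was called and 10.2% had an unadjusted p under 0.05. The 3 kept Cx3cl1 probe sets had estimates of 0.13 (SE 0.052), 0.17 (SE 0.071) and 0.35 (SE 0.15) log2 units higher in arrays 10 to 24. None passed, with adjusted p of 0.385, 0.393 and 0.408. For Cx3cr1 the estimates were -0.053 (SE 0.10) on 1450020_at and 0.083 (SE 0.15) on 1450019_at, with adjusted p of 0.889 and 0.884.

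Within a diet, covariation between animals did not use the difference between diets. Over 16 animals, each relative to its diet mean, Cx3cr1 on 1450020_at correlated with Csf1r at r = 0.63 (permutation p = 0.0212; adjusted p = 0.0988) and rho = 0.61 (permutation p = 0.0290; adjusted p = 0.0988). With Aif1 it correlated at r = 0.58 (permutation p = 0.0347; adjusted p = 0.0988) and rho = 0.58 (permutation p = 0.0371; adjusted p = 0.0988). With P2ry12 the values were r = 0.50 (permutation p = 0.0272; adjusted p = 0.0988) and rho = 0.45 (permutation p = 0.0752; adjusted p = 0.125). With its ligand Cx3cl1 they were r = 0.45 (permutation p = 0.0695; adjusted p = 0.125) and rho = 0.35 (permutation p = 0.166; adjusted p = 0.249). None passed after Benjamini-Hochberg adjustment over 24 p-values of 12 relations, all two-sided. Without the 2 animals farthest from the median of Cx3cr1, r was 0.51, 0.48, 0.44 and 0.55 for Csf1r, Aif1, P2ry12 and Cx3cl1. The genes share arrays, and the median r of all other genes with Cx3cr1 was 0.14.

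The partners of the receptor had different r in the 2 diets. With Csf1r, Cx3cr1 had r = 0.85 in the 8 controls (exact permutation p = 0.0120; adjusted p = 0.0717) and rho = 0.88 (exact permutation p = 0.00724; adjusted p = 0.0717). In the 8 PIO animals r was 0.15 (exact permutation p = 0.715; adjusted p = 0.780) and rho -0.048 (exact permutation p = 0.935). With Cx3cl1, r was 0.060 in controls (exact permutation p = 0.899; adjusted p = 0.935) and rho -0.33 (exact permutation p = 0.428; adjusted p = 0.513). In PIO animals r was 0.86 (exact permutation p = 0.00990; adjusted p = 0.0717) and rho 0.88 (exact permutation p = 0.00724; adjusted p = 0.0717). Without the 2 animals farthest from the median, these 4 values of r were 0.83, 0.22, 0.0080 and 0.58. The difference between the diets in r was not tested.

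For P2ry12, r was 0.42 in controls (exact permutation p = 0.318; adjusted p = 0.402) and rho 0.29 (exact permutation p = 0.501; adjusted p = 0.572). In PIO animals r was 0.68 (exact permutation p = 0.0560; adjusted p = 0.125) and rho 0.69 (exact permutation p = 0.0694; adjusted p = 0.125). The control value was -0.53 without the 2 farthest animals and so rests on them, and the PIO value was 0.59. For Aif1, r was 0.66 in controls (exact permutation p = 0.0782; adjusted p = 0.125) and rho 0.71 (exact permutation p = 0.0576; adjusted p = 0.125). In PIO animals r was 0.41 (exact permutation p = 0.317; adjusted p = 0.402) and rho 0.45 (exact permutation p = 0.267; adjusted p = 0.378). Without the 2 farthest animals they were 0.52 and 0.69.

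Within array sets, the diet-centred r of Cx3cr1 with Csf1r, Aif1, P2ry12 and Cx3cl1 was 0.68, 0.66, 0.60 and 0.30 in the 11 arrays of the largest label code, and the other sets held too few animals. It was 0.73, 0.59, 0.29 and 0.63 in the 10 arrays numbered 10 to 24, and 0.55, 0.59, 0.61 and 0.90 in the 6 numbered 1 to 6. With diet and array range both removed, r with Cx3cl1 was 0.69 (permutation p = 0.00700; adjusted p = 0.0410) and r with Csf1r 0.65 (permutation p = 0.0114; adjusted p = 0.0410), so that these 2 passed under that setting. With diet and label code both removed, r with Cx3cl1 was 0.26 (permutation p = 0.379; adjusted p = 0.505) and r with Csf1r 0.73 (permutation p = 0.0258; adjusted p = 0.101). On the dimmer Cx3cr1 probe set, r with Csf1r, Aif1, P2ry12 and Cx3cl1 was 0.24, 0.27, 0.58 and 0.53.

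**Figure D5:**
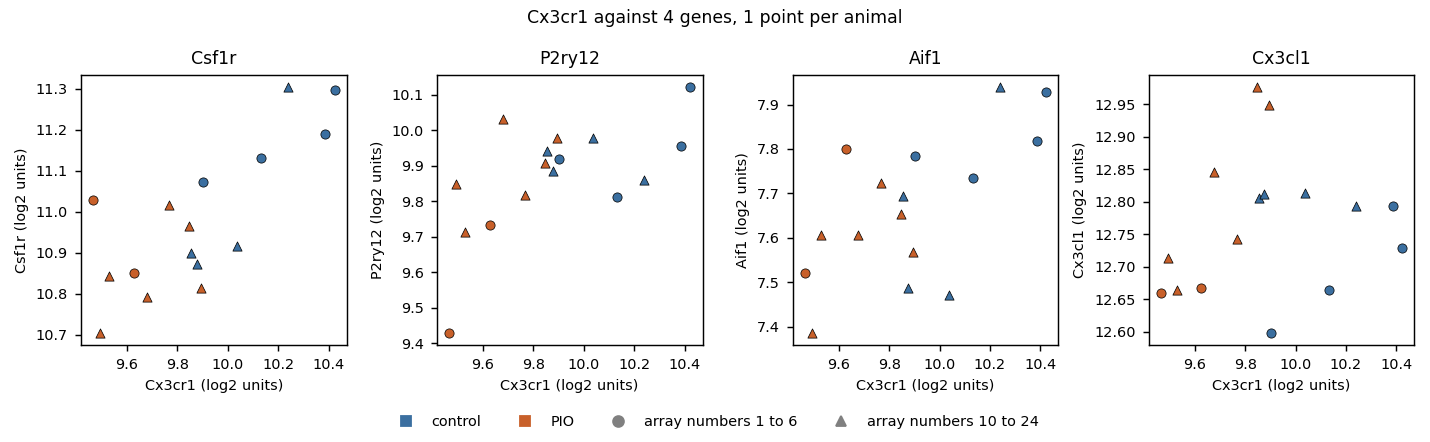
Log2 levels of Csf1r, P2ry12, Aif1 and Cx3cl1 against log2 Cx3cr1 (1450020_at), 1 point per animal, blue for control and orange for PIO, circles for arrays 1 to 6 and triangles for arrays 10 to 24. In the Csf1r panel control points climb with Cx3cr1 (r = 0.85, beside 0.15 with PIO). In the Cx3cl1 panel PIO points do (r = 0.86, beside 0.060 in controls). No r within a diet passed after adjustment, and the difference between the diets in r was not tested. PIO points lie to the left of nearly all controls.

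The genes most like each member across animals were taken from 12264 others by Pearson r over the 16 diet-centred arrays, as a description. For Cx3cr1 they were Tbck (r = 0.85), Btaf1 (0.83), the phosphatase gene Dusp3 (0.82), Coq9 of coenzyme Q synthesis (0.82), Naalad2 (0.82) and the calcium channel subunit gene Cacnb1 (0.81). No gene of the microglial list was among these 6. All 26 list genes had a positive r with Cx3cr1, from 0.031 to 0.76, with a median of 0.57. The highest, seen afterwards, was that of Tmem119, a membrane protein that marks microglia. Of 14 neuronal genes 10 also had a positive r with Cx3cr1, with a median of 0.11. The median over all 12264 genes was 0.14, and the share of them with a positive r was not counted. For Cx3cl1 the nearest genes were the ETS factor Etv5 (r = 0.94), Dlk2 (0.91), Tacc1 (0.91), Fam193b (0.90), the troponin gene Tnnc1 (0.90) and Drp2 (0.90). The neuronal list had a median r of -0.0039 with Cx3cl1, with 7 of 14 genes positive. The PIO difference of Naalad2 was -0.30 (SE 0.16), and those of the other 5 genes most like Cx3cr1 lay between -0.087 and 0.046.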

How the data were processed

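The deposited values are log2 expression per probe set and array, a scale taken from the values, which run from 0.33 to 16.6 with array medians of 5.65 to 5.76. The submitters' processing notes name MAS5, GCRMA and R 2.7.1, while the method that made the values was not given in the sources used here. If GCRMA did, its background model can widen differences of dim genes. Values were taken as normalized between arrays.

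Of 45101 probe sets 64 controls were left out. The platform annotation gave 34945 probe sets 1 symbol, 932 several and 9160 none, and only the first were named. RefSeq changed 0 symbols of 34741 identifiers found. The 40th percentile filter kept 27022 probe sets and 12266 genes, each shown by its highest-mean probe set.

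Group differences came from limma 3.58.1 (lmFit, eBayes; R 4.3.3), with Benjamini-Hochberg adjustment over all genes or probe sets. On independent normal values simulated with these genes' means and SDs, the fit's median estimates lay near the changes put in. The share of small changes that such a fit calls is not given here. SE of ratios are from ordinary least squares. Correlations used scipy 1.17.1 with 40320 exact pairings for 8 animals and 100000 permutations within diet otherwise. Each array is of a separately numbered subject. The members, lists and tests were chosen with earlier results of these data known. Genes were named as up to 3 of each list with the smallest p, the 6 most like each member, and those needed for the tissue check. Other settings were another or no filter, quantile normalization, a common median, the label code or array range as a block or alone, every probe set, another prior, other comparison genes, and each animal left out.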

Additional observations from a re-analysis of the deposited data

Results flagged for a closer look

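Over 40 groups of 8 values, 1 animal stood apart from the rest of its diet, and chance gives about 1 in 20 groups. It was control animal 4 on the Cx3cl1 probe set 1441884_x_at, at 2.57 log2 units, with the next control at 2.72. This probe set lies under the filter on low values. On the brighter Cx3cl1 probe set 1415804_at the same animal was the highest control, at 12.08.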

How the results depend on the processing

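The Cx3cr1 difference kept its sign in 24 of 24 alternatives, between -0.46 and -0.30 log2 units (arrays 10 to 24 alone), and between -0.48 and -0.40 with 1 animal left out. Relative to the 3 genes it kept its sign in 28 of 28, between -0.32 and -0.20, and between -0.32 and -0.26 with 1 animal left out. On 1450019_at the Cx3cr1 difference ranged from -0.51 to -0.17, and with 1 animal left out from -0.41 to -0.28. Cx3cr1 was chosen by its difference on these same arrays, so a kept sign was likely beforehand and is not independent support. The Cx3cl1 difference has no settled sign: it was -0.0060 with the array range as a block, and with 1 animal left out between -0.0025 (without PIO animal 13) and 0.043. Between diets 0 genes were called under any of 26 alternatives. At an unadjusted p under 0.05 there were 290 in the largest set of the label code alone, which has fewer arrays, 1999 with every probe set on its own, and 575 to 1137 with 1 animal left out. Between array ranges 1 gene was called, 2 after quantile normalization or with the label code as a block, 3 without diet, and 0 with a common median or in the largest set; the cause was not tested. With diet and array range both removed, r of Cx3cr1 with Csf1r (0.65) and with Cx3cl1 (0.69) passed the adjusted threshold, and the cause was not tested. With Cx3cl1, r was 0.26 with diet and label code removed, 0.39 after quantile normalization and 0.37 with a common median. No paired analysis was possible because the 2 diets share no animal number. Which probe sequences were read is not known here, so probe sets of a gene cannot be ranked by quality.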

Other observations

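The balance between receptor and ligand was looked at after the values were seen, so it is a description of these animals. Cx3cr1 was chosen for its lower values with PIO, and its diet difference enters this balance. How many other gene pairs separate the diets was not counted. Log2 Cx3cr1 (1450020_at) minus log2 Cx3cl1 (1415803_at) within each array ranged from -2.95 to -2.31 in controls and from -3.22 to -2.97 with PIO. All 8 PIO animals lay below the lowest control, by a margin as small as that between control animal 5, at -2.95, and PIO animal 12, at -2.97. The means were -2.65 ± 0.24 and -3.12 ± 0.084 (SD, n = 8 each), a difference of -0.47, which was -0.63 in arrays 1 to 6 and -0.31 in arrays 10 to 24. The spread of this quantity was smaller with PIO than in controls, and whether the 2 spreads differ was not tested. Cx3cl1 relative to 14 neuronal genes differed by 0.032 (SE 0.056).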
